A study of Homo sapiens with 4 samples.

Results

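The mature miRNAs of the imprinted DLK1-MEG3 locus on human chromosome 14q32 were followed one by one in 2 human hepatoma cell lines and in the hepatic cancer stem cells (HCSCs) derived from them. The members were chosen by name, from a list of 48 mature miRNAs of the locus whose names carry no asterisk, and all 48 were among the 1733 miRNAs of each count table. Small RNA had been sequenced from 4 libraries, with 1 library per group and no replicates. Hep3B and Huh7, cell lines obtained from ATCC, served as the hepatocellular carcinoma (HCC) cells. Hep3B-C and Huh7-C were the stem-like cells cultured from each of them, and no agent, allele or time point is given for any of the 4. Each comparison is therefore between the reads of 2 libraries, not between conditions, and all intervals cover counting error only.

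The DLK1-MEG3 domain holds genes that are expressed from the paternal chromosome, among them DLK1 and RTL1, and non-coding RNAs that are expressed from the maternal chromosome, among them MEG3, MEG8 and the miRNAs. A methylated region between DLK1 and MEG3 controls which copy is active. The miRNAs are known from placenta, embryo and brain and are low in most adult tissues, and high levels have been described in some liver tumours. Each miRNA is cut from a hairpin that can yield a mature strand from its 5p arm and another from its 3p arm, and the bases from position 2 to 8 of the mature strand, the seed, lead it to its target mRNAs.

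On the GRCh38.p14 assembly the members came from 44 hairpin genes on the plus strand of chromosome 14, spread over 214 kb. The first group of 10 hairpins, here called the RTL1 part, lay at chr14:100852390-100911207 and gave 12 members. In GENCODE release 29, MIR431, MIR433, MIR127, MIR432 and MIR136 of this group overlapped an exon of RTL1 on the opposite strand, MIR770 lay over an exon of MEG3, and MIR370 lay in an intron of MEG8. The remaining 34 hairpins, here called the miR-379 to miR-656 part, lay at chr14:101022066-101066801, 111 kb further along, and gave 36 members. Of these hairpins, 10 were in introns of MEG8, 5 in introns of MIR381HG and 4 within MEG9, where MIR410 overlapped an exon.

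The sequences that follow belong to the members on which the results turn: the most counted ones, the pairs of arms whose ratio differed between libraries, and the miR-376 family. They are written 5′ to 3′ from RefSeq (GRCh38.p14, plus strand, positions of the mature strand), with the seed in capitals. RefSeq held 47 of the 48 members, and the ends of a strand may differ from those of miRBase release 17, which the count tables use.

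hsa-miR-379 (chr14:101022071-101022091): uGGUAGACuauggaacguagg
hsa-miR-411 (chr14:101023340-101023360): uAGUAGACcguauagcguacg
hsa-miR-382 (chr14:101054316-101054337): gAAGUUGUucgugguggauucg
hsa-miR-134 (chr14:101054694-101054715): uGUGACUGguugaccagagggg
hsa-miR-381 (chr14:101045968-101045989): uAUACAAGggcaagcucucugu
hsa-miR-889 (chr14:101047949-101047969): uUAAUAUCggacaaccauugu
hsa-miR-409-3p (chr14:101065346-101065367): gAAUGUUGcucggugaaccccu
hsa-miR-654-5p (chr14:101040234-101040255): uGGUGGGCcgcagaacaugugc
hsa-miR-654-3p (chr14:101040269-101040290): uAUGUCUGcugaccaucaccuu
hsa-miR-127-3p (chr14:100883035-100883056): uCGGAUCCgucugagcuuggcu
hsa-miR-432 (chr14:100884496-100884518): uCUUGGAGuaggucauugggugg
hsa-miR-493* (chr14:100869075-100869096): uUGUACAUgguaggcuuucauu
hsa-miR-493 (chr14:100869116-100869137): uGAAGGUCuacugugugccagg
hsa-miR-376a (chr14:101040118-101040138): aUCAUAGAggaaaauccacgu
hsa-miR-376b (chr14:101040497-101040518): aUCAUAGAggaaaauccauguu
hsa-miR-376c (chr14:101039732-101039752): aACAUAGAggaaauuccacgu

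The 47 members carried 46 different seeds. The shared seed was that of hsa-miR-376a and hsa-miR-376b, which had the same base at 20 of the 21 positions compared, and hsa-miR-376c matched hsa-miR-376a at 6 of the 7 seed bases. The most counted member, hsa-miR-379, also matched hsa-miR-411 at 6 of 7 seed bases. The members were therefore not copies of a single sequence, and reads of most of them could be told apart. The miR-376 group and hsa-miR-487a and hsa-miR-487b, with 19 of 22 bases the same, are uncertain, because reads could be split between near-identical names. Mature lengths ran from 20 to 23 bases, GC content from 23.8% to 70.0%, and 19 members began with U and 20 with A.

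Depth differed between the libraries. The deposited tables summed to 1739278 miRNA counts for Hep3B, 5430195 for Hep3B-C, 5741567 for Huh7 and 4045199 for Huh7-C, which were 10.4%, 35.2%, 54.1% and 37.8% of the total reads of the study. Levels are given as TPM, reads scaled to 1000000 total reads, so that a count of 0 allows a level of up to 0.179, 0.194, 0.282 and 0.280 TPM, respectively (3 counts). Because the miRNA share differed, every log2 fold-change of the Hep3B pair is smaller by 1.76 when miRNA counts serve as library sizes, and every log2 fold-change of Huh7 against Hep3B is smaller by 2.38. The hepatocyte marker hsa-miR-122 stood at 23.7 TPM in Hep3B and 9708 TPM in Hep3B-C, against 46077 and 13515 TPM in Huh7 and Huh7-C, so that the Hep3B library was low in a defining marker of its tissue. Of the markers of other cells, the 5 mesenchymal ones summed to between 2.99 TPM in Huh7-C and 115 TPM in Hep3B-C, mostly hsa-miR-143, and the 5 blood ones to between 0.0648 TPM in Hep3B-C and 74.9 TPM in Huh7, mostly hsa-miR-451. The 3 neuronal ones summed to 25.4 TPM in Hep3B, 88.0 TPM in Hep3B-C, 969 TPM in Huh7 and 1084 TPM in Huh7-C, mostly hsa-miR-9 in all but Hep3B, with hsa-miR-124 at 0 throughout. Of 8 miRNAs of pluripotent cells, hsa-miR-302a, hsa-miR-302b, hsa-miR-302c, hsa-miR-302d and hsa-miR-367 had 0 counts in every library. The other 3 had 0 counts in the Hep3B pair, while hsa-miR-371-5p, hsa-miR-372 and hsa-miR-373 summed to 3 counts in Huh7 and 16 in Huh7-C.

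Reads of the cluster were most abundant in Hep3B-C and almost absent in Huh7-C. Of the 48 members, Hep3B held 35, Hep3B-C 45, Huh7 22 and Huh7-C 6, and 15, 33, 8 and 1 of them reached 10 counts. Of all 1733 miRNAs, 674, 773, 712 and 664 were detected in the same order of libraries. The members summed to 2851, 25394, 740 and 22 counts. hsa-miR-665 and hsa-miR-770-5p had 0 counts in every library, and 45 of the 46 detected members had their highest TPM in Hep3B-C. The exception was hsa-miR-1185, with 3 counts in Hep3B and 0 elsewhere. The share of all miRNAs with their highest TPM in Hep3B-C is not given here, so this is not a trait shown for the cluster alone. Lower numbers of expressing cells and less RNA per cell cannot be told apart in these bulk libraries.

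hsa-miR-379, the first hairpin of the miR-379 to miR-656 part, had the most reads of the cluster in all 4 libraries. It was counted 1037 times in Hep3B, 10485 times in Hep3B-C, 359 times in Huh7 and 12 times in Huh7-C, that is at 61.8, 679, 33.8 and 1.12 TPM. Among all miRNAs it took rank 69 in Hep3B, rank 43 in Hep3B-C, rank 128 in Huh7 and rank 326 in Huh7-C. It held 36.4% (95% exact interval 34.6 to 38.2) of the cluster counts in Hep3B, 41.3% (40.7 to 41.9) in Hep3B-C, 48.5% (44.9 to 52.2) in Huh7 and 54.5% (32.2 to 75.6) in Huh7-C.

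hsa-miR-134, known in neurons for limiting the size of dendritic spines, followed it in every library, with 842 and 4840 counts in Hep3B and Hep3B-C and 178 and 5 counts in Huh7 and Huh7-C. hsa-miR-127-3p, an antisense miRNA of RTL1, came next in the Hep3B pair and had 344, 2729, 18 and 0 counts in the same order of libraries. hsa-miR-432, cut from the next hairpin over the same exon, had 172, 1470, 1 and 1 counts. The Hep3B libraries thus held both of these RTL1 antisense miRNAs at over 10 TPM, while neither reached 2 TPM in Huh7.

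The next members by summed counts were all of the miR-379 to miR-656 part. hsa-miR-382 was counted 46 times in Hep3B, 1182 times in Hep3B-C, 14 times in Huh7 and once in Huh7-C. hsa-miR-381 had 55, 993, 74 and 2 counts in that order, and was the only one of the 8 most counted members whose TPM was higher in Huh7 (6.97) than in Hep3B (3.28), an order that turned when miRNA counts served as library sizes. hsa-miR-411 had 66, 785, 16 and 0 counts, and hsa-miR-889 had 60, 615, 16 and 0. All 8 had their highest level in Hep3B-C and their lowest in Huh7-C, apart from hsa-miR-432, whose single counts in Huh7 and Huh7-C were at the same level.

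**Figure D1:**
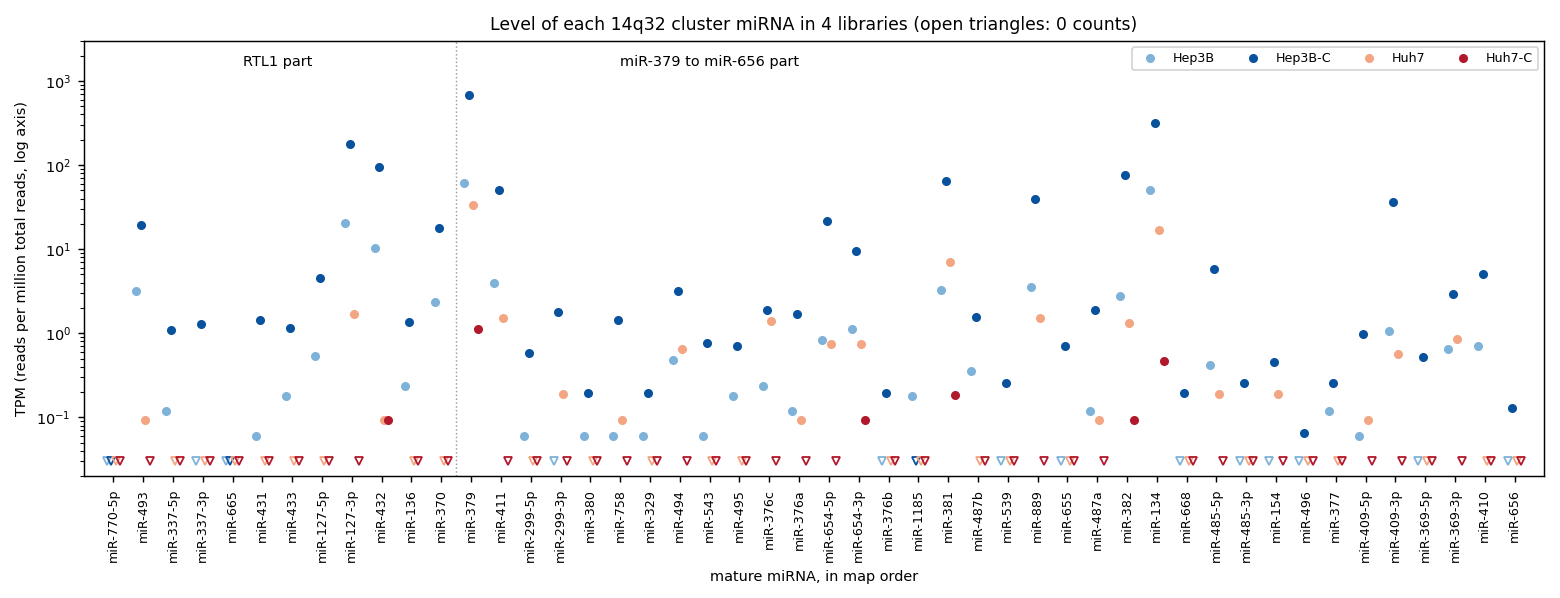
Level of each of the 48 members (x axis, in map order, with the dotted line between the RTL1 part and the miR-379 to miR-656 part) in TPM on a log axis, with 1 point per library and open triangles at the bottom for 0 counts. The dark blue points of Hep3B-C lie highest for 45 members, and dark red points of Huh7-C appear for 6 members.

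The members outside the naming rule were low. A set of 13 of them (hsa-miR-758, hsa-miR-494, hsa-miR-543, hsa-miR-495, hsa-miR-376a, hsa-miR-487a, hsa-miR-487b, hsa-miR-655, hsa-miR-410, hsa-miR-431, hsa-miR-433, hsa-miR-136 and hsa-miR-370) had between 0 and 39 counts in Hep3B, between 11 and 274 in Hep3B-C, between 0 and 7 in Huh7, and 0 for all 13 in Huh7-C. The highest of them was hsa-miR-370, with 39 and 274 counts in the Hep3B pair and 0 in both Huh7 libraries. A further 12 (hsa-miR-380, hsa-miR-376b, hsa-miR-1185, hsa-miR-539, hsa-miR-154, hsa-miR-496, hsa-miR-377, hsa-miR-656, hsa-miR-665, hsa-miR-770-5p, hsa-miR-329 and hsa-miR-668) never exceeded 7 counts.

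HCSCs were first compared with HCC cells in the Hep3B pair. Up-regulation in Hep3B-C was found for 32 of the 46 members with at least 1 count, and down-regulation for 0, by the exact Poisson test for the reads of 2 libraries (2-sided, called at 2-fold or more with a Benjamini-Hochberg adjusted p up to 0.01). Among all 834 miRNAs tested, 33.0% were called higher and 2.52% lower. All 10 tested members of the RTL1 part were called higher, and 22 of the 36 of the other. Among the 14 members without a call, hsa-miR-495 had the highest count in Hep3B-C, at 11.

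Over the 33 members with at least 10 counts in either library, the median log2 fold-change was 3.21 (0.5 counts added; 3.21 with members at 0 set at their bound), and values ran from 1.84 to 5.95. Over the 475 miRNAs that met the same rule, the median was 1.42, and all 33 members lay above it. Of the 33, 15 had at least 10 counts in both libraries. Their log2 fold-changes without added counts ran from 2.15 to 5.07, and from 0.39 to 3.31 on miRNA counts. The others met the rule through Hep3B-C alone, which favours a high value, so their place above the median is no separate support. On miRNA counts the members' median was 1.45 against -0.34 for all miRNAs, with all 33 members still above 0. Members called higher then numbered 13 (3 of the RTL1 part, 10 of the other), where 5.28% of all miRNAs were called higher. In this pair 2 of 3 neuronal markers were also called higher, hsa-miR-9 with 154 and 844 counts (log2 fold-change 2.57) and hsa-miR-128 with 273 and 515 (1.04), while hsa-miR-124 was at 0. Of the 5 mesenchymal markers, 1 was called higher and 1 lower. hsa-miR-143 had 427 and 1706 counts (2.12) and was called higher, while hsa-miR-199a-3p had 165 and 64 (-1.25) and was called lower. On miRNA counts the values of hsa-miR-9, hsa-miR-128, hsa-miR-143 and hsa-miR-199a-3p were 0.81, -0.73, 0.36 and -3.01. Their part in the result was not tested.

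The fold differed among members by more than counting error. For the summed cluster, the log2 fold-change was 3.28 (95% exact interval 3.22 to 3.33). Of the 34 members with at least 10 counts over the pair, 24 had an interval that included this value, 6 lay above it and 4 below. Above it were hsa-miR-379, hsa-miR-411, hsa-miR-654-5p, hsa-miR-381, hsa-miR-382 and hsa-miR-409-3p, and below it hsa-miR-134, hsa-miR-369-3p, hsa-miR-493 and hsa-miR-127-3p. This order does not depend on the library size, which moves every member by the same amount. The intervals of hsa-miR-411, hsa-miR-127-3p and hsa-miR-369-3p still overlapped that of the sum, so these are not clearly set apart from it. Intervals were not adjusted for the number of members.

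Among the 15 members with at least 10 counts in both libraries, hsa-miR-409-3p rose most, from 18 to 557 counts, a log2 fold-change of 5.07 (4.40 to 5.84). hsa-miR-382 rose by 4.80 (4.38 to 5.26) and hsa-miR-654-5p, from 14 to 334 counts, by 4.70 (3.93 to 5.58). All 3 lie in the miR-379 to miR-656 part, where hsa-miR-381 also rose by 4.29 (3.90 to 4.71). The smallest increase was that of hsa-miR-369-3p, from 11 to 45 counts and with 9 counts in Huh7 and 0 in Huh7-C, at 2.15 (1.18 to 3.25; exact Poisson test, adjusted p = 3.86e-06). hsa-miR-493 went from 54 to 296 counts, with 1 in Huh7 and 0 in Huh7-C, a log2 fold-change of 2.57 (2.15 to 3.02). With miRNA counts as library sizes both lost their call, at 0.39 for hsa-miR-369-3p and 0.81 for hsa-miR-493, and hsa-miR-369-3p also lost it with TMM (0.74) and DESeq2 size factors (0.97).

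The 2 members with the most reads bracketed the summed fold. hsa-miR-379 rose by 3.46 (3.37 to 3.55), an 11.0-fold difference, and hsa-miR-134 by 2.64 (2.54 to 2.75), a 6.25-fold difference. Their intervals did not overlap, and the share of hsa-miR-134 in the cluster went from 29.5% (27.9 to 31.2) in Hep3B to 19.1% (18.6 to 19.5) in Hep3B-C. On miRNA counts hsa-miR-379 kept its call, at 1.70, and hsa-miR-134 lost it, at 0.88. The RTL1 antisense miRNAs hsa-miR-127-3p and hsa-miR-432 lay between them, at 3.11 (2.95 to 3.27) and 3.22 (2.99 to 3.45).

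Low members, where called, were called higher. A lower call was hardly open to those with few counts in Hep3B. A count of 3 in Hep3B against 0 in Hep3B-C gave an adjusted p of 0.249 in the exact Poisson test. The shared direction of such members was thus largely fixed and is no support by itself. Over the RTL1 exon, hsa-miR-431 had 1 count in Hep3B and 22 in Hep3B-C, hsa-miR-433 had 3 and 18, and hsa-miR-136 had 4 and 21, with log2 fold-changes of 4.58 (1.95 to 9.95), 2.71 (0.93 to 5.11) and 2.51 (0.94 to 4.52). hsa-miR-370, the last hairpin of the RTL1 part, rose by 2.93 (2.45 to 3.46). In the miR-379 to miR-656 part, hsa-miR-494 went from 8 to 49 counts, hsa-miR-410 from 12 to 78, hsa-miR-376a from 2 to 26, hsa-miR-487a from 2 to 29 and hsa-miR-487b from 6 to 24, all of them called higher. Their intervals were wide, and each of these 9 except hsa-miR-370 lost its call when miRNA counts served as library sizes. hsa-miR-299-3p (28 counts), hsa-miR-337-3p (20) and hsa-miR-655 (11) had 0 counts in Hep3B and were at least 10.1-fold, 7.25-fold and 3.99-fold higher in Hep3B-C. On miRNA counts hsa-miR-337-3p and hsa-miR-655 lost their calls as well, and their log2 bounds were 1.09 and 0.23.

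In the Huh7 pair the cluster was lower in the HCSCs. Down-regulation in Huh7-C was found for 9 of the 22 members with at least 1 count, and up-regulation for 0, by the same exact Poisson test. Among all 772 miRNAs tested, 17.1% were called lower and 2.98% higher. The 9 were hsa-miR-379, hsa-miR-411, hsa-miR-376c, hsa-miR-381, hsa-miR-889, hsa-miR-382, hsa-miR-134 and hsa-miR-369-3p of the miR-379 to miR-656 part, and hsa-miR-127-3p of the RTL1 part. All 9 were called higher in Hep3B-C, and 0 members were called in the same direction in both pairs. Calls over all miRNAs also ran in opposite directions, mostly higher in the Hep3B pair (33.0%) and mostly lower in the Huh7 pair (17.1%). The share of all miRNAs called in opposite directions is not given here, so the overlap is not a trait shown for the cluster alone.

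hsa-miR-379 fell by 4.92 on the log2 scale, with an interval from -5.88 to -4.09. The log2 fold-change was -5.17 (-6.81 to -3.92) for hsa-miR-134 and -5.22 (-8.29 to -3.32) for hsa-miR-381. Since hsa-miR-382 left a single count in Huh7-C, its log2 fold-change of -3.82 has an interval from -9.22 to -1.10 (exact Poisson test, adjusted p = 0.00168). These 4 intervals overlapped, and each included the summed log2 fold-change of -5.08 (-5.77 to -4.48).

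The remaining 5 called members had 0 counts in Huh7-C, so their changes are bounds against 3 counts. hsa-miR-127-3p was at least 6.05-fold lower and hsa-miR-411 and hsa-miR-889 each at least 5.38-fold lower. hsa-miR-376c had 4 and 29 counts in the Hep3B pair, and with 15 counts in Huh7 and 0 in Huh7-C it was at least 5.04-fold lower, with an adjusted p of 0.000112 in the exact Poisson test. hsa-miR-376c belongs to a family whose precursors are known to be edited from A to I within the seed. Reads of edited strands were not examined here.

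The median over the 8 members with at least 10 counts in either library was -5.0 (0.5 counts added), and -3.21 with the 4 members at 0 set at their bound. The median of all 431 miRNAs was -0.66, and all 8 members lay below it. Of these, only hsa-miR-379 had at least 10 counts in both libraries, at -4.92. The rest met the rule through Huh7 alone, which favours a low value, so their place below the median is no separate support. The other 13 members tested had at most 8 counts in Huh7 and were not called. The closest among them were hsa-miR-654-5p, with 8 counts against 0 (exact Poisson test, adjusted p = 0.0115), and hsa-miR-494, with 7 against 0 (exact Poisson test, adjusted p = 0.0218). The blood marker hsa-miR-451 also went from 773 to 2 counts in this pair and hsa-miR-142-3p from 20 to 3. In the Hep3B pair the 5 blood markers stayed at 1 to 8 counts in all. Of the 5 mesenchymal markers, 2 were called lower in Huh7-C and 0 higher. These were hsa-miR-199a-3p, with 72 and 13 counts, and hsa-miR-143, with 33 and 13. The hepatocyte marker hsa-miR-122 was called lower too, at -1.77, while no neuronal or pluripotent marker was called. The part of all these markers in the result was not tested.

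**Figure D2:**
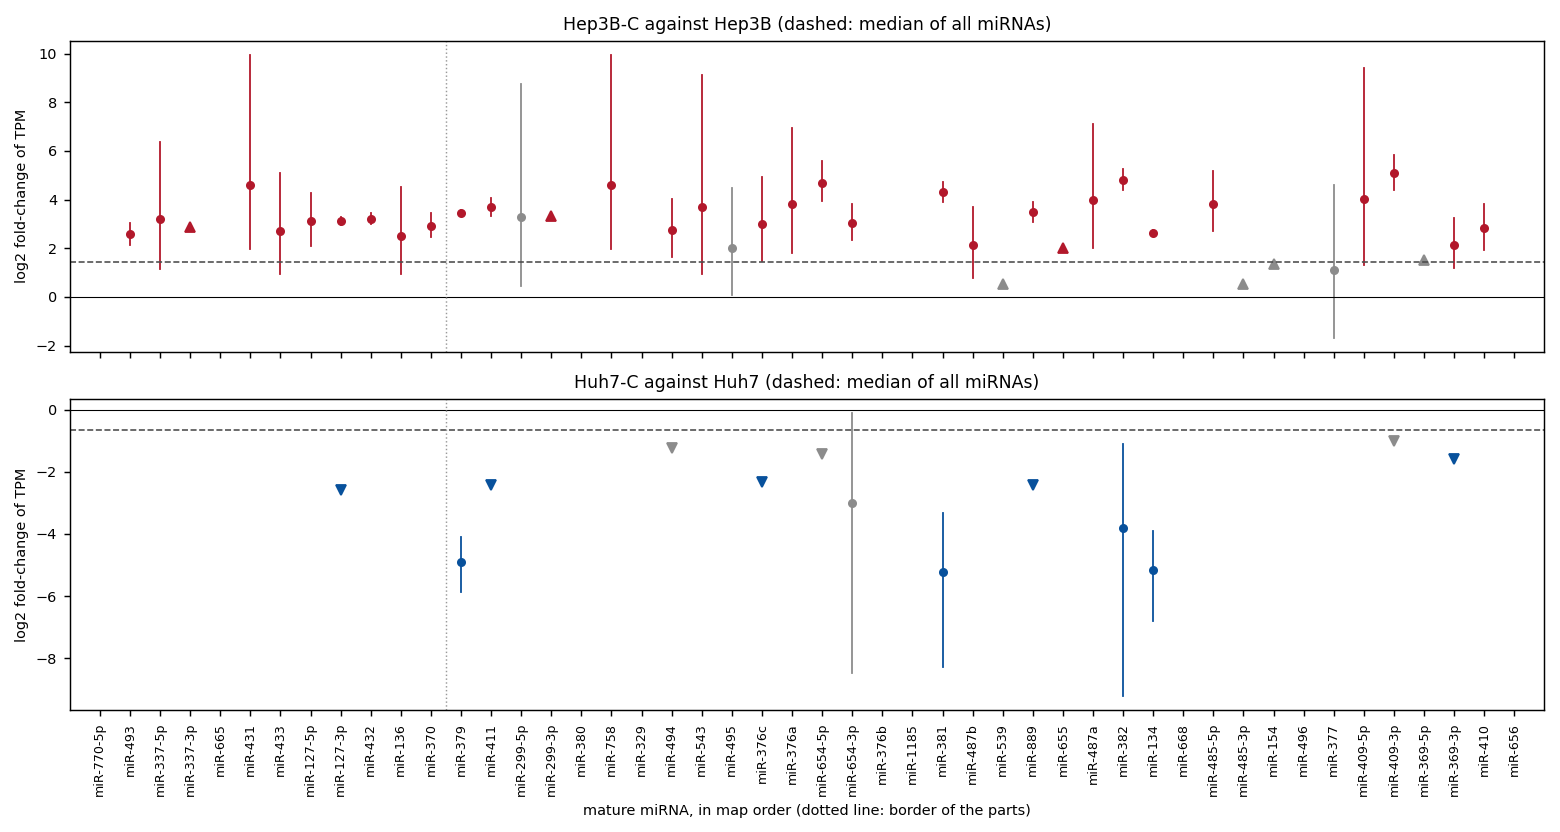
Log2 fold-change of TPM (y axis) of each member in map order (x axis), for Hep3B-C against Hep3B above and Huh7-C against Huh7 below. Points have 95% exact intervals, triangles are bounds for members with 0 counts in a library, red marks members called higher, blue members called lower and grey members without a call, members with at most 3 counts in each library of a pair have no point, and the dashed line is the median of all miRNAs (1.42 and -0.66). Coloured points lie above the line in the upper panel, where 32 members were called, and below it in the lower panel, where 9 were.

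**Figure D3:**
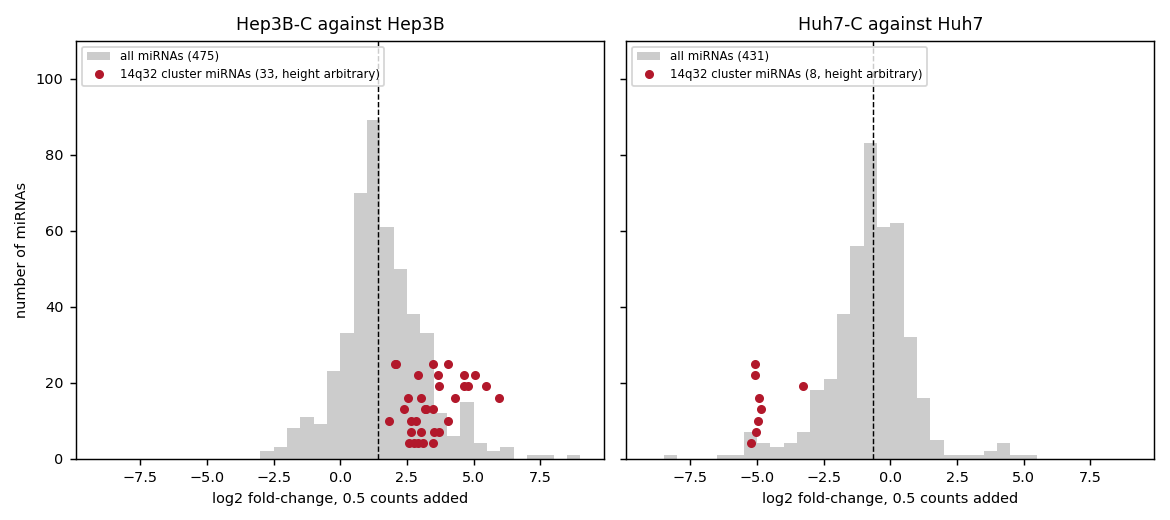
Log2 fold-change with 0.5 counts added (x axis) of every miRNA that reached 10 counts in either library (grey histogram, number of miRNAs on the y axis) and of the cluster members (red points, whose height has no meaning), for each pair. The 33 members of the Hep3B pair, of which 15 reached 10 counts in both libraries, lie to the right of the dashed median of all 475 miRNAs. The 8 members of the Huh7 pair, of which 1 reached 10 counts in both libraries, lie between -5.22 and -3.29.

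The parent lines differed in which part of the cluster they held. Of 37 members tested between Huh7 and Hep3B, 8 were called lower in Huh7 and 2 higher by the exact Poisson test, where 9.18% of all 828 miRNAs were called lower and 32.4% higher. The members called lower were hsa-miR-493, hsa-miR-127-3p, hsa-miR-432 and hsa-miR-370, which are the 4 of the RTL1 part with at least 10 counts in either library, and hsa-miR-411, hsa-miR-889, hsa-miR-134 and hsa-miR-410 of the other. Of the 4 of the RTL1 part, only hsa-miR-127-3p reached 10 counts in both parents. The rest met the rule through Hep3B alone, which favours a low value, so their shared direction is no separate support. The members called higher were hsa-miR-381 (log2 fold-change 1.09, 0.56 to 1.62) and hsa-miR-376c (2.57, 0.92 to 4.62). On miRNA counts neither was called higher: hsa-miR-381 then stood at -1.29 and hsa-miR-376c at 0.18, and 19 members were called lower.

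Within the cluster, which no library size affects, the RTL1 part supplied 628 of 2851 counts in Hep3B, 22.0% (20.5 to 23.6). In Hep3B-C it supplied 4938 of 25394, 19.4% (19.0 to 19.9), and in Huh7 20 of 740, 2.70% (1.66 to 4.14). In Huh7-C it gave 1 of 22 counts, 4.55% (0.115 to 22.8). The share in Huh7 was below that of both Hep3B libraries without overlap of the intervals, and the interval of Huh7-C was too wide to place it.

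Summed over its members, the RTL1 part stood at 37.4 TPM in Hep3B and 1.88 TPM in Huh7, a log2 fold-change of -4.31 (-5.03 to -3.67). For the miR-379 to miR-656 part the values were 132 and 67.8 TPM and -0.97 (-1.09 to -0.84). Single members of the RTL1 part had log2 fold-changes of -6.77 (-12.1 to -4.27) for hsa-miR-432, -5.10 (-10.4 to -2.56) for hsa-miR-493 and -3.60 (-4.37 to -2.91) for hsa-miR-127-3p. hsa-miR-370 was at least 8.23-fold lower. By contrast hsa-miR-379 had a log2 fold-change of -0.87 (-1.05 to -0.70), which did not reach 2-fold, and hsa-miR-654-5p, hsa-miR-654-3p, hsa-miR-494, hsa-miR-369-3p and hsa-miR-409-3p had intervals that included 0 and that together reached from -2.55 to 2.13. With miRNA counts as library sizes the gap between the parts is the same, and both sums are lower in Huh7. hsa-miR-379 was then called lower, at -3.25, and it was also called lower with TMM (-2.33) and DESeq2 size factors (-2.32). Of the 5 members whose intervals included 0, hsa-miR-654-3p and hsa-miR-409-3p were likewise called lower with each of these 3 library sizes, and hsa-miR-654-5p with miRNA counts.

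Between the HCSCs, 33 of 45 members tested were lower in Huh7-C than in Hep3B-C and 0 higher by the exact Poisson test, where 23.0% of all 868 miRNAs were called lower and 13.6% higher. This comparison shares its libraries with those above and adds no further library. hsa-miR-127-3p, at 2729 counts in Hep3B-C and 0 in Huh7-C, was at least 631-fold lower, and hsa-miR-134, at 4840 and 5 counts, had a log2 fold-change of -9.39. Of the 8 pluripotent cell miRNAs, only hsa-miR-371-5p, with 0 and 7 counts, was called higher in Huh7-C (exact Poisson test, adjusted p = 0.00916). hsa-miR-372 (0 and 4 counts) and hsa-miR-373 (0 and 5) were not called. Against Huh7, hsa-miR-371-5p was not called either (exact Poisson test, adjusted p = 0.0433).

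**Figure D4:**
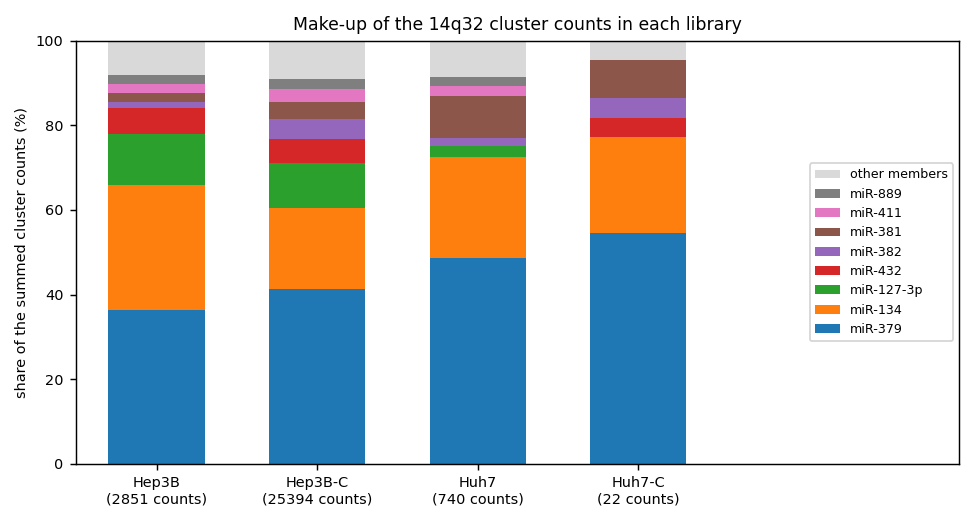
Share of the summed cluster counts (y axis, %) that each of the 8 most counted members and all others together supplied in each library (x axis, with the summed counts). hsa-miR-379 takes 36.4% to 54.5% of the bar in every library, and the green and red blocks of hsa-miR-127-3p and hsa-miR-432, 12.1% and 6.03% in Hep3B, shrink to 2.43% and 0.135% in Huh7, while the bar of Huh7-C rests on 22 counts.

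Both arms were listed as members for 7 hairpins, and arms of a hairpin are compared within a library, where depth plays no role. The 3p arm held most reads of miR-127, miR-409 and miR-369, and the 5p arm most reads of miR-485. hsa-miR-127-5p was counted 9 times in Hep3B, 71 times in Hep3B-C and 0 times in either Huh7 library, so that the 5p share was 2.55% (1.17 to 4.78) in Hep3B and 2.54% (1.99 to 3.19) in Hep3B-C. hsa-miR-409-5p had 1, 15, 1 and 0 counts against 18, 557, 6 and 0 of hsa-miR-409-3p, a 5p share of 2.62% (1.47 to 4.29) in Hep3B-C. The more abundant arm of miR-127 and miR-409 was the same in all libraries that had reads of them.

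hsa-miR-369-5p was counted 8 times in Hep3B-C and 0 times elsewhere, which gave a 5p share of 15.1% (6.75 to 27.6) there. hsa-miR-485-5p had 7, 90, 2 and 0 counts and hsa-miR-485-3p had 0, 4, 0 and 0, so that the 5p share in Hep3B-C was 95.7% (89.5 to 98.8). Neither arm of miR-299 and miR-337 reached 10 counts outside Hep3B-C. There hsa-miR-299-5p and hsa-miR-299-3p had 9 and 28 counts (5p share 24.3%, 11.8 to 41.2), against 1 and 0 in Hep3B and 0 and 2 in Huh7, and hsa-miR-337-5p and hsa-miR-337-3p had 17 and 20 counts (45.9%, 29.5 to 63.1), against 2 and 0 in Hep3B and 0 in Huh7. All 4 of these strands had 0 counts in Huh7-C.

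The arms of miR-654 differed between Hep3B and Hep3B-C. hsa-miR-654-5p had 14 counts and hsa-miR-654-3p 19 in Hep3B, a 5p share of 42.4% (25.5 to 60.8). In Hep3B-C they had 334 and 145 counts and the 5p share was 69.7% (65.4 to 73.8). The intervals did not overlap, while that of Huh7, with 8 counts for each arm, ran from 24.7% to 75.3% and overlapped both. In Huh7-C hsa-miR-654-3p had 1 count and hsa-miR-654-5p 0. Accordingly, the change in the Hep3B pair was larger for the 5p strand, a log2 fold-change of 4.70, than for the 3p strand, 3.05 (2.36 to 3.83).

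Strands that miRBase release 17 names with an asterisk were no members, but some held more reads than the member of the same hairpin. hsa-miR-493* was counted 121 times in Hep3B and 1263 times in Hep3B-C, which put the 5p share of miR-493 at 69.1% (61.7 to 75.9) and 81.0% (79.0 to 82.9). hsa-miR-380* had 24 and 209 counts against 1 and 3 of hsa-miR-380, hsa-miR-431* had 10 and 51 against 1 and 22 of hsa-miR-431, and hsa-miR-136* had 5 and 81 against 4 and 21 of hsa-miR-136. By contrast hsa-miR-379* had 2 counts in Hep3B and 8 in Hep3B-C, and hsa-miR-432* had 0 in every library. The less counted strand of 4 hairpins was thus the one with the plain name.

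**Figure D5:**
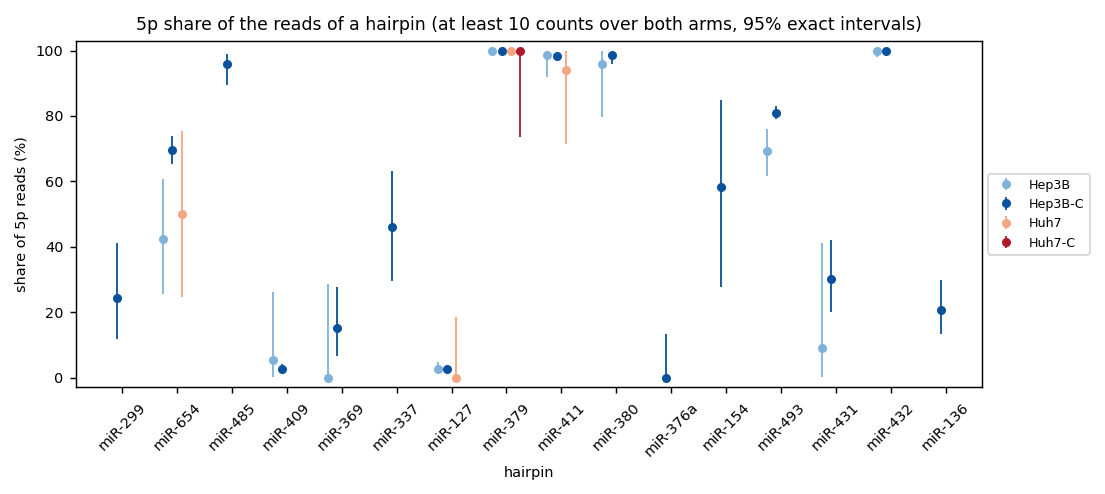
Share of 5p reads (y axis, %) among the reads of both arms of a hairpin (x axis), for each library with at least 10 counts over both arms, with 95% exact intervals. Strands named with an asterisk are included for the hairpins from miR-379 to the right. Points of Hep3B and Hep3B-C lie together for miR-127 at 2.55% and 2.54%, and apart for miR-654 at 42.4% and 69.7% and for miR-493 at 69.1% and 81.0%.

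Of 10 strands with an asterisk, 9 had a count in the Hep3B pair, and 5 of them (hsa-miR-411*, hsa-miR-380*, hsa-miR-493*, hsa-miR-431* and hsa-miR-136*) were called higher in Hep3B-C. That was 55.6% of the 9, where 33.0% of all 834 miRNAs were called higher. hsa-miR-493* rose by 3.50 and hsa-miR-136* by 4.14 on the log2 scale. Of 11 other mature miRNAs of the locus that are no members, 7 had a count in this pair, and hsa-miR-323-3p (1 and 34 counts) and hsa-miR-541 (6 and 26 counts) were called higher. This share, 28.6% of the 7, was no larger than among all miRNAs. On miRNA counts hsa-miR-431* (0.71) and hsa-miR-541 (0.47) fell below 2-fold, and the rest of these called strands did not. Whether the rest kept their calls on miRNA counts is not given here. None of the 11 other miRNAs was counted in the Huh7 pair. hsa-miR-300, whose seed is that of hsa-miR-381, had 0 counts in both pairs.

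Outside the imprinted domain but still on 14q32, 4 miRNAs were compared. hsa-miR-345 had log2 fold-changes of 1.38 (Hep3B pair) and -1.16 (Huh7 pair), hsa-miR-342-5p of 1.35 and -1.35, and hsa-miR-342-3p of 0.89 and -0.86. hsa-miR-203 was called in neither pair and had 4, 2, 27 and 12 counts in the same order of libraries as above. hsa-miR-345 and hsa-miR-342-5p were called higher in Hep3B-C and lower in Huh7-C. The values of hsa-miR-345 and hsa-miR-342-5p in the Hep3B pair lay below the median of all miRNAs (1.42), and all 33 members with at least 10 counts in either library lay above it. Of these 33, 15 reached 10 counts in both libraries. The rest met the rule through Hep3B-C alone, which favours a high value. In the Huh7 pair all 4 lay below the median of all miRNAs too, and their log2 fold-changes minus that median (0.5 counts added) ran from -0.67 to -0.20, against -4.56 to -2.62 for the 8 members with at least 10 counts in a library. Of these 8, only hsa-miR-379, at -4.19, reached 10 counts in both libraries. The rest met the rule through Huh7 alone, which favours a low value.

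The non-members with a level profile over the 4 libraries most like the median of the members, by Euclidean distance of centred log2(TPM + 1) values among 427 miRNAs, were hsa-miR-193b* (0.305), hsa-miR-3175 (0.346), hsa-miR-3174 (0.359), hsa-miR-20a* (0.367) and hsa-miR-365 (0.374). hsa-miR-193b* had 156 and 440 counts in the Hep3B pair, and the Huh7 libraries had 91 and 47. All 5 had their highest level in Hep3B-C and their lowest in Huh7-C, which largely follows from how they were chosen. The members themselves lay at a median distance of 0.878 from this profile, and hsa-miR-379 lay farthest, at 4.52. The likeness of the 5 rests on 4 libraries.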

How the data were processed

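Small RNA had been sequenced on the Illumina Genome Analyzer II from 4 libraries, grouped by the cell line in the labels. The authors discarded contaminants, redundant reads and those under 18 nt, mapped the rest to NCBI Build 36 with SOAP, set aside other small RNA classes and deposited raw read counts of mature miRNAs named by miRBase 17. How a read that fitted several names was counted is not given in the sources used here.

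The study's total reads per library turned these counts into TPM. Each pair was tested by the 2-sided exact Poisson test (scipy 1.17.1) over all miRNAs with at least 1 count, with Benjamini-Hochberg adjustment over all of them, a log2 fold-change of at least 1 (TPM of 0 set to 0.001 for this criterion) and an adjusted p of at most 0.01. The observed count entered both tails. Intervals were 95% Clopper-Pearson, and a count of 0 was replaced by 3 counts for bounds. Alternatives were miRNA totals, TMM (edgeR 4.0.16) and DESeq2 1.42.0 size factors, exact binomial and edgeR exact tests with an assumed coefficient of variation, and other filters. The test was checked on simulated counts. Positions came from RefSeq and GENCODE 29, not from the authors' build.

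Values in every library were given for 23 members: the 8 most counted, those with at least 10 counts in the Huh7 pair, both arms of 7 hairpins, and the 3 largest and 3 smallest changes of the Hep3B pair among members with at least 10 counts in both libraries. Members and lists were chosen with earlier results of these data known. The sources do not say how many cultures a library came from.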

Additional observations from a re-analysis of the deposited data

Results flagged for a closer look

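A difference between the pairs was noted for 8 members that reached 10 counts in either library of each pair: each moved up in Hep3B-C and down in Huh7-C. Of the 8, only hsa-miR-379 reached 10 counts in both Huh7 libraries. The rest met the rule there through Huh7 alone, which favours a fall, so their direction is no separate support. The share of all miRNAs that moved in opposite directions is not given here. With 1 library per group the difference between the pairs was not tested. The median of all miRNAs was likewise positive in the Hep3B pair (1.42) and negative in the Huh7 pair (-0.66). The log2 fold-change of the Hep3B pair exceeded that of the Huh7 pair by 8.37 for hsa-miR-379, 9.52 for hsa-miR-381, 8.62 for hsa-miR-382 and 7.81 for hsa-miR-134. For members with 0 counts in Huh7-C the difference is a bound, of at least 6.12 for hsa-miR-411, 5.31 for hsa-miR-376c, 5.91 for hsa-miR-889 and 5.71 for hsa-miR-127-3p.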

How the results depend on the processing

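Members called higher in the Hep3B pair (32) fell to 13 with miRNA totals and 18 with TMM as library sizes, and to 8 with edgeR's exact test at an assumed coefficient of variation of 0.4. The last left 3 of the 9 members called lower in the Huh7 pair. These 9 became 7, 8 and 7 with miRNA totals, TMM and DESeq2 size factors, and 7 with edgeR's test at 0.2. Between the parent lines, the 2 members called higher became 0 with miRNA totals, TMM, DESeq2 size factors and either edgeR test, and the 8 called lower became 19, 14, 14, 5 (coefficient of variation 0.2) and 4 (0.4). The median log2 fold-change of the Hep3B pair was 1.45, 1.80 and 2.03 with miRNA totals, TMM and DESeq2 sizes, and that of the Huh7 pair was -4.18 with 1 count added and -3.50 over members with at least 1 count. Leaving the observed count out of the upper tail, an alternative chosen after seeing the data, gave 33, 9, 2 and 8 calls. Of all values of calls and medians, 81 stayed within 1.5 times, or within 1 SD over the members, of the values reported.

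Directions turned for 4 named values. In the Hep3B pair the bound of hsa-miR-485-3p went to -1.23, -0.88 and -0.64 with miRNA totals, TMM and DESeq2 sizes, and that of hsa-miR-369-5p to -0.23 with miRNA totals. For Huh7 against Hep3B, hsa-miR-381 went to -1.29, -0.37 and -0.36 and hsa-miR-369-3p to -2.01, -1.09 and -1.08. In this comparison hsa-miR-379, hsa-miR-382, hsa-miR-654-3p, hsa-miR-409-3p and hsa-miR-127-5p became called lower with each of these 3 sizes, and hsa-miR-654-5p and hsa-miR-485-5p with miRNA totals. With miRNA totals the shift is set by the share of miRNA reads, 10.4% of all reads in Hep3B. Within a line, 1 library per group leaves no residual degree of freedom, and a fit over both lines with the line as a block was not run here. In the Huh7 pair 8 members reached 10 counts, beside 5741567 miRNA counts in Huh7 and 4045199 in Huh7-C.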
